A study of Mus musculus with 11 samples.

Results

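Car1, Gata1, Mfsd2b, Rab27b, Mcpt8 and Hdc are markers of blood lineages outside the granulocyte-macrophage fate, and they are 6 of the 638 genes of the signature that the authors deposited for progression of a CML-like disease. They were taken by gene symbol from that signature, so the authors' own selection on these arrays chose them. All 6 had a negative fold in the authors' deposited table. Expression was measured in granulocyte-macrophage progenitors (GMPs, the marrow progenitors of neutrophils and monocytes), which were sorted by flow cytometry as lineage-negative, Sca-1-negative, c-Kit-positive, CD34-positive cells with high Fc receptor, on 11 Affymetrix mouse arrays. The 4 control arrays came from mice labelled MxCre–Ctnnb1(Ex3)fl/+, which carry 1 floxed beta-catenin allele; the dash is read here as the absence of the recombinase. The 3 arrays labelled Irf8 KO lack the transcription factor Irf8, and the series text gives these mice the same floxed allele. The 4 arrays labelled Irf8 KO / b-cat(Ex3) lack Irf8 and had exon 3 of Ctnnb1 excised, which yields a beta-catenin that is not degraded. Every mouse, controls included, received poly(I:C), which induces interferon, at 400 µg on each of days 0, 3 and 5. Harvest of the marrow came 10 to 14 days after the final injection. MxCre is driven by an interferon-inducible promoter that is not limited to blood cells. Each array came from a pool of mice, and the pools are called independent. Mice with active beta-catenin and intact Irf8 are not analysed here.

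The 6 genes mark neighbouring branches of the myeloid tree. Gata1 is the transcription factor that drives erythroid and megakaryocyte differentiation and also acts in eosinophils, basophils and mast cells. Car1 is a cytosolic carbonic anhydrase of red cells, and Mfsd2b exports the lipid mediator sphingosine-1-phosphate from red cells and platelets. Rab27b is a small GTPase for secretion of platelet and mast cell granules. Mcpt8 is a serine protease of mouse basophil granules, and Hdc makes histamine from histidine in basophils and mast cells. Early erythroid and megakaryocyte progenitors lie beside GMPs in marrow and are normally kept apart by CD34 and the Fc receptor, while basophil and mast cell precursors share part of the GMP phenotype. Irf8 itself directs myeloid progenitors towards monocytes and dendritic cells and restrains granulocyte formation.

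Promoter sequences are shown because the erythroid and mast cell genes are textbook targets of GATA, Kruppel-like and E-box factors, and the 6 genes lay on the same side of the signature. RefSeq windows of 250 bases before to 50 after the start site (build GRCm38.p6) were held for 4 of the 6 genes. They are given 5′ to 3′ on the gene's strand, with capitals for CACCC or its reverse complement, the core bound by Kruppel-like factors. Gata1 (chrX:7967861-7968160, minus strand) and Mfsd2b (chr12:4874310-4874609, minus strand) each held 2 such matches, whereas Mcpt8 (chr14:56085148-56085447, minus strand) and Hdc (chr2:126618629-126618928, minus strand) held 0.
Gata1: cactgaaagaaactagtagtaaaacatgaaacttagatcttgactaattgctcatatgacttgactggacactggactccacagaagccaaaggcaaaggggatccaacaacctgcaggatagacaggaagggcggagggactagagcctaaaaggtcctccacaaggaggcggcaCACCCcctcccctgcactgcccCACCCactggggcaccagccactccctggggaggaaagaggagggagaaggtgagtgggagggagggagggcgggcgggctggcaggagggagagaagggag
Mfsd2b: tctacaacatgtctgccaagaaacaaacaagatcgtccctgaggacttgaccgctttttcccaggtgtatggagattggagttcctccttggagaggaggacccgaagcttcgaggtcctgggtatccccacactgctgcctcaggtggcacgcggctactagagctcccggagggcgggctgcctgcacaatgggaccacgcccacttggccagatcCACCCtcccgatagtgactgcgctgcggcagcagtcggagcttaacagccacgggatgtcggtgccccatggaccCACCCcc
Mcpt8: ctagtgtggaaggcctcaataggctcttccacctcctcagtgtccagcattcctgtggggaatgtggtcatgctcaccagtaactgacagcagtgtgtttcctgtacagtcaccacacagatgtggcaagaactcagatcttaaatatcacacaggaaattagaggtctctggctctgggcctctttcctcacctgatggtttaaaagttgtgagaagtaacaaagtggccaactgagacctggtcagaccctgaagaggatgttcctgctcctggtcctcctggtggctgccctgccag
Hdc: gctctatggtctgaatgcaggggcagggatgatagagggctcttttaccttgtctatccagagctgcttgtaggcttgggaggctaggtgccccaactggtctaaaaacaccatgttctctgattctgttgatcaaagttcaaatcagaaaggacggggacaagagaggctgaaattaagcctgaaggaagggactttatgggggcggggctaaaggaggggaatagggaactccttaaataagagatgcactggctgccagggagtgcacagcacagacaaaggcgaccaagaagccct
CACCC was present on either strand in 57.5% of the 32851 promoter windows of the RefSeq table. GATAA, a longer form of the GATA core, was in 0 of these 4 windows and in 25.4% of all windows. The shorter GATA was not counted, and the windows printed above do hold it on either strand. The E-box CANNTG, in 72.3% of all windows, matched 1 time in Gata1, 3 times in Mfsd2b, 3 times in Mcpt8 and 1 time in Hdc. These matches describe letters within the windows and do not place a bound factor there.

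The array table does not name genes. Its rows were tied to the signature through the authors' unrounded folds: for each of the 638 genes exactly 1 of the 45037 probe sets gave the same difference of group means, to within 1e-08 on the log2 scale. This held for Irf8 KO / b-cat(Ex3) minus control in 638 of 638 rows and for the other 2 comparisons in 0. The signature's fold is therefore the difference between the doubly modified and the control GMPs, with positive values higher in the former. Each of the 6 genes has 1 named probe set, and any others are not used here. The set for Hdc bears the suffix that Affymetrix gives to sets matching several transcripts, and Mcpt8 belongs to a family of similar proteases whose cross-hybridisation was not tested.

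The arrays resembled each other, with a median correlation to the other arrays of their own group of 0.980 to 0.994. On the first principal component (34.6% of the variance) control replicate 4 lay at -6.54, between the other controls (-60.7 to -45.2) and the Irf8 KO arrays (-1.15 to 20.2). Irf8 KO / b-cat(Ex3) replicate 2 lay farthest on the other side, at 54.9. The neutrophil surface protein Cd177, the named marker of 14 fixed for maturing neutrophils, read 6.82 in control replicate 4 against 3.73 to 4.17 in the other controls and 6.32 to 9.57 in the other groups. Irf8 read 9.23 to 9.78 in controls, 7.90 to 8.89 in Irf8 KO and 7.51 to 8.63 in Irf8 KO / b-cat(Ex3). Its difference between Irf8 KO and control, -0.998 ± 0.28 (SE), did not pass (limma, adjusted p = 0.116). Whether this probe set lies in the deleted part of Irf8 is not known, so it does not check the labels, and Ctnnb1 is not among the named genes. Of 19 GMP markers only Irf8 and the growth factor receptor Csf3r have a named probe set, so the sorted cell type could not be checked further.

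The first question was how far these genes differed between Irf8 KO and control GMPs, without the activated beta-catenin. In Irf8 KO Car1, Gata1, Mfsd2b and Rab27b fell, Car1 by the most at 7.75-fold, and Mcpt8 and Hdc did not pass. Gata1 and Rab27b also act in mast cells, so the calls do not sort the genes cleanly by lineage. Of the 6 genes, 4 passed in limma (adjusted p under 0.05 over all 45037 probe sets), all lower. By the same rule 1.75% of all probe sets were called in either direction and 0.941% were called lower, as were 24.2% of the 244 signature rows with a negative fold. Of the 394 positive rows 15% were called higher. The 4 control arrays, and possibly the Irf8 KO arrays, took part in choosing the genes, so these p-values are not independent of the choice.

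Car1 stood at 6.11, 5.07, 5.78 and 6.89 in the 4 control arrays, at 2.71, 2.99 and 3.32 in Irf8 KO, and at 2.77, 2.89, 2.86 and 2.58 in Irf8 KO / b-cat(Ex3) (log2 expression). Every control lay far above every other array, and the mutant groups overlapped, with 2 of the 3 Irf8 KO arrays above every Irf8 KO / b-cat(Ex3) array. The fall in Irf8 KO was -2.95 ± 0.32 on the log2 scale (SE; 95% interval -3.65 to -2.26, limma adjusted p = 0.000489). Car1 ranked second from the bottom of the signature, at a log2 fold change of -3.19 in the authors' deposited table (p = 0.00014).

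Gata1, the lineage regulator, was the tightest of the 6 among controls, at 4.71, 4.93, 4.88 and 4.78. It read 3.66, 3.39 and 3.61 in Irf8 KO and 3.53, 3.14, 3.72 and 3.47 in Irf8 KO / b-cat(Ex3). No mutant array came within reach of a control. Gata1 fell by 1.27 on the log2 scale in Irf8 KO, or 2.42-fold (SE 0.14, 95% interval -1.57 to -0.98, limma adjusted p = 0.000432).

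Mfsd2b, the sphingosine-1-phosphate exporter, read 4.54, 3.77, 4.59 and 4.25 in controls, 2.94, 2.49 and 3.61 in Irf8 KO and 2.87, 2.39, 2.75 and 2.95 in Irf8 KO / b-cat(Ex3). Irf8 KO replicate 3 at 3.61 came close to the lowest control at 3.77, without crossing it. The fall of 2.42-fold in Irf8 KO had a log2 difference of -1.28 ± 0.26 (SE, limma adjusted p = 0.0278).

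Rab27b, the granule GTPase, read 4.34, 3.43, 3.69 and 3.48 in controls, 2.86, 2.73 and 2.56 in Irf8 KO and 2.51, 3.00, 2.64 and 2.66 in Irf8 KO / b-cat(Ex3). Control replicate 1 stood above the other 3 controls, and the mutant groups overlapped fully. Rab27b fell by 2.03-fold in Irf8 KO (log2 difference -1.02 ± 0.20, SE; limma adjusted p = 0.024). The calls of Mfsd2b and Rab27b were each lost in 4 of the 11 fits that left out 1 array, Mfsd2b without control replicate 1 or 3 or Irf8 KO replicate 1 or 2 and Rab27b without control replicate 3 or any Irf8 KO replicate (limma adjusted p up to 0.126 and 0.0937). Those of Car1 and Gata1 held in all 11.

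The basophil and mast cell genes were the brightest of the 6 on these arrays, and neither passed in Irf8 KO. Mcpt8 differed by about as much as Rab27b but with a wider spread, and Hdc by less. Mcpt8 read 7.46, 8.75, 7.47 and 8.56 in controls, 7.27, 6.42 and 7.35 in Irf8 KO and 6.39, 5.90, 6.81 and 6.73 in Irf8 KO / b-cat(Ex3). The controls split into a pair near 7.5 and a pair above 8.5, and 2 Irf8 KO arrays lay only just under the lower pair. The difference between Irf8 KO and control was -1.04 ± 0.36 (SE; 95% interval -1.82 to -0.26) and did not pass (limma adjusted p = 0.214).

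Hdc read 7.65, 7.81, 7.47 and 7.75 in controls, 7.39, 7.42 and 7.14 in Irf8 KO and 7.04, 6.66, 6.74 and 7.23 in Irf8 KO / b-cat(Ex3). The groups stepped down one after the other, with 1 Irf8 KO / b-cat(Ex3) array above the lowest Irf8 KO array. Hdc differed by -0.35 ± 0.15 between Irf8 KO and control (SE; 95% interval -0.68 to -0.03), which did not pass (limma adjusted p = 0.335). Among controls, replicates 2 and 4 were the 2 highest for both Mcpt8 and Hdc. For both Mfsd2b and Rab27b the 2 highest were replicates 1 and 3, for Car1 replicates 1 and 4, and for Gata1 replicates 2 and 3.

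**Figure D1:**
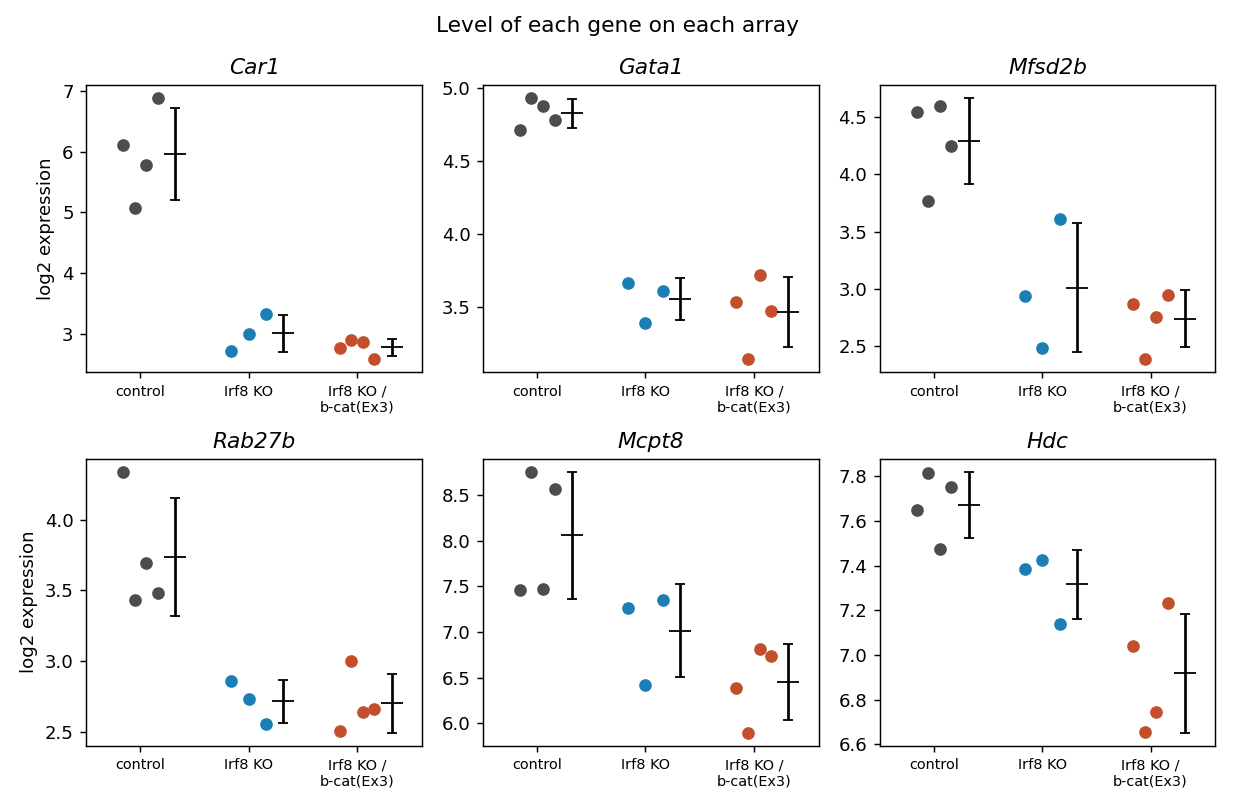
Log2 expression (vertical axis, a separate scale per gene) of the 6 genes on each array of the control (n = 4), Irf8 KO (n = 3) and Irf8 KO / b-cat(Ex3) (n = 4) groups; points are arrays, and the bar beside them is the mean ± SD. Car1 falls from 5.07 to 6.89 in controls to 2.58 to 3.32 in both mutant groups, whereas Hdc steps down over the 3 groups.

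In all 6 genes every Irf8 KO array was below every control array, which held for 7.01% of all probe sets and 75% of the negative signature rows. Two-sided exact permutation tests over the 35 splits of 4 and 3 arrays gave p = 0.0286, the smallest possible, for Car1, Gata1, Mfsd2b and Rab27b, p = 0.114 for Mcpt8 and p = 0.0571 for Hdc. Such separation partly follows from how the genes were chosen. In bulk RNA of sorted cells, fewer cells of a lineage and less RNA per cell cannot be told apart.

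The second question was what activated beta-catenin added in Irf8 KO GMPs, the step named in the series title. None of the 6 genes passed between Irf8 KO / b-cat(Ex3) and Irf8 KO (limma, 0 of 6 by adjusted p, 1 of 6 at an unadjusted p under 0.05, Hdc). Among all 45037 probe sets 2 passed (0.00444%, and 0.00222% lower), and 3182 had an unadjusted p under 0.05. Of the 244 negative signature rows 0 passed, and of the 394 positive rows 1 did (0.254%). The 4 Irf8 KO / b-cat(Ex3) arrays also took part in choosing the genes. In each of the 6 the groups overlapped, whereas 3.07% of all probe sets and 23.4% of the negative signature rows were lower on every array.

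The intervals of this step were narrow for Gata1 and wide for Mcpt8. Gata1 differed by -0.09 ± 0.14 (SE; 95% interval -0.38 to 0.21) and Rab27b by -0.01 ± 0.20 (95% interval -0.45 to 0.43). For Car1 the difference was -0.23 ± 0.32 (95% interval -0.93 to 0.46) and for Mfsd2b -0.27 ± 0.26 (95% interval -0.84 to 0.29). The estimates of Mcpt8, -0.56 ± 0.36 (95% interval -1.34 to 0.22), and Hdc, -0.40 ± 0.15 (95% interval -0.72 to -0.07), were the lowest of the 6. The groups are not shown to be alike. Car1, Mfsd2b and Rab27b were dim in the mutant groups, and the ranks of Gata1 there overlapped those of Car1 and Mfsd2b. For these genes the intervals cover array error only and do not bound a further fall below the measurable level.

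**Figure D2:**
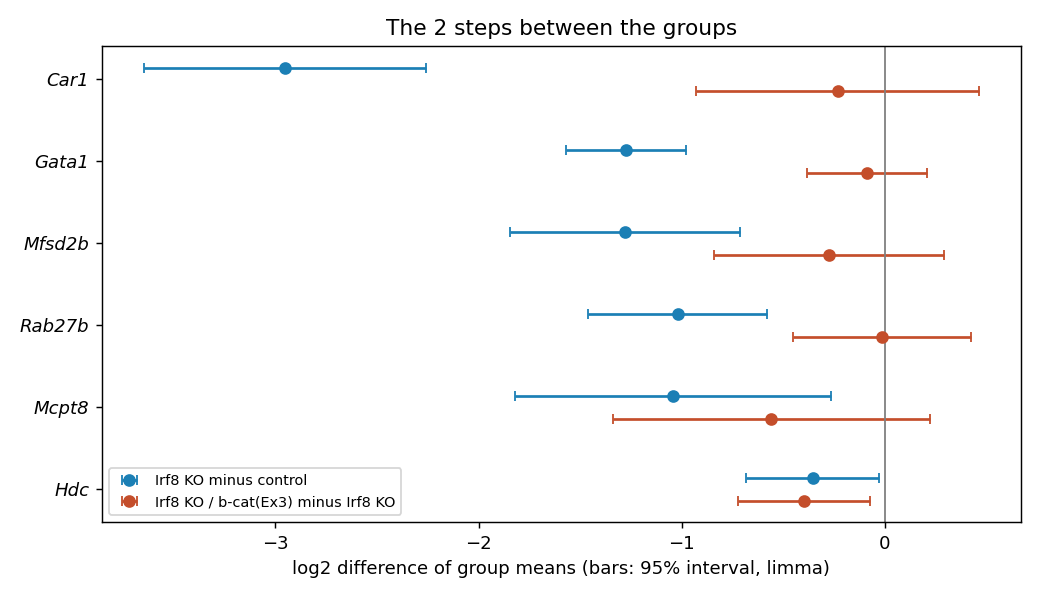
Log2 difference of group means (horizontal axis) for the 6 genes, with 95% limma intervals: blue for Irf8 KO minus control, red for Irf8 KO / b-cat(Ex3) minus Irf8 KO. For Car1 the first is -2.95 and the second -0.23, while for Hdc they are -0.35 and -0.40.

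Set side by side, the first step held 92.7% of the whole difference between doubly modified and control GMPs for Car1, 93.6% for Gata1, 82.4% for Mfsd2b and 98.7% for Rab27b. It held 65.2% for Mcpt8 and 47.1% for Hdc. Over the 244 negative signature rows the median was 68.2% and the middle 50% of rows ran from 49.0 to 80.6%. The 3 comparisons share arrays, so these shares describe the levels and are not a test. Car1, Mfsd2b and Rab27b were dim in both mutant groups, where a further fall may not be measurable. The ranks of Gata1 there overlapped those of Car1 and Mfsd2b. The shares of these genes therefore cannot be set on a par with those of the bright Mcpt8 and Hdc.

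Whether the Irf8 KO level departs from the midpoint of the control and Irf8 KO / b-cat(Ex3) groups is a contrast added after the data were seen. With 4 arrays in each outer group and equal spread, its estimate shares no error with the signature's fold. The authors' rows also end at a p-value limit from a test that is not stated. The estimates, SEs and intervals given here may therefore not be independent of the choice. Irf8 KO lay below that midpoint by -1.36 ± 0.28 for Car1 (SE; 95% interval -1.98 to -0.74) and -0.59 ± 0.12 for Gata1 (95% interval -0.85 to -0.33). Neither passed over all probe sets (limma adjusted p = 0.166 and 0.144), and 45 of 45037 did (0.0999%, with 0.0711% lower), none of them among the 244 negative signature rows. Rab27b at -0.50 ± 0.18 and Mfsd2b at -0.50 ± 0.23 did not pass either (limma adjusted p = 0.571 and 0.705), and Mcpt8 at -0.24 ± 0.32 and Hdc at 0.02 ± 0.13 lay near the midpoint within their errors (adjusted p = 0.94 and 0.989). The Car1 and Gata1 intervals exclude 0 before adjustment, but the unequal steps of single genes are not established at this number of arrays.

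**Figure D3:**
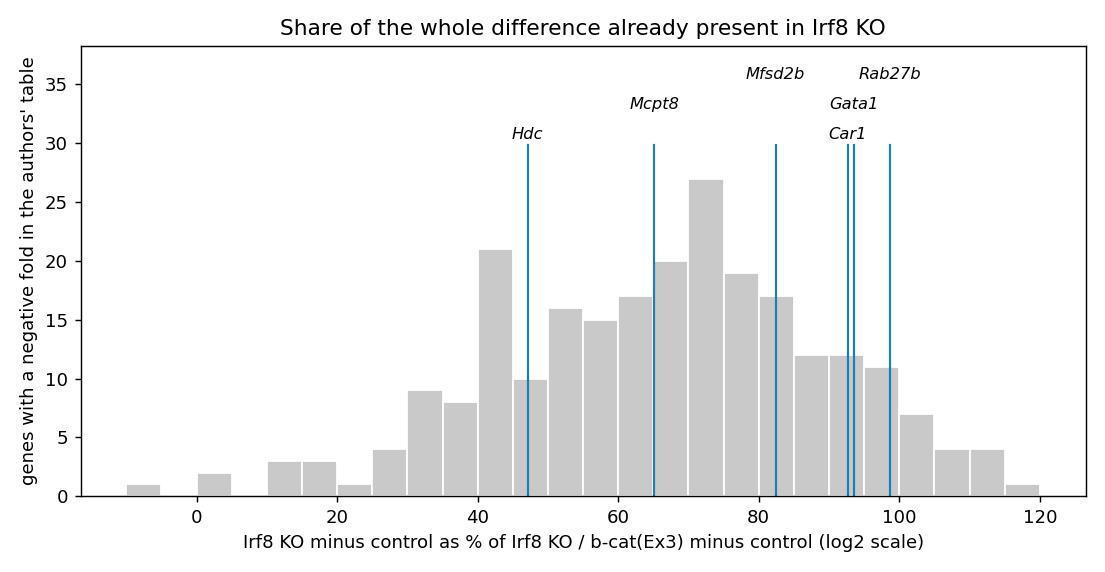
Histogram of Irf8 KO minus control as a percent of Irf8 KO / b-cat(Ex3) minus control, on the log2 scale (horizontal axis), over the 244 signature genes with a negative fold (vertical axis, number of genes), with blue lines for the 6 genes. Rab27b, Gata1, Car1 and Mfsd2b lie at 82.4 to 98.7%, right of the median of 68.2%, and Mcpt8 and Hdc at 65.2 and 47.1%.

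Between Irf8 KO / b-cat(Ex3) and control, the comparison whose fold the signature gives, the values are given as description. The test behind the authors' p-values is not stated, and they differ from the limma p-values of this comparison. Whether the Irf8 KO arrays also took part in choosing the genes is therefore not known. The authors' deposited table lists -3.19 for Car1, -1.60 for Mcpt8, -1.55 for Mfsd2b, -1.36 for Gata1, -1.03 for Rab27b and -0.75 for Hdc. All 6 were lower on every array, as were 5.24% of all probe sets and 93% of the negative signature rows. Hdc lay closest to the limits of the authors' deposited table, with 1.69-fold and p = 0.00128 where the rows end at 1.5-fold and p = 0.0016. Genes just outside those limits have no named probe set here.

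The levels bear on what a fold can show. In both mutant groups Car1, Mfsd2b and Rab27b sat in the dim part of the array: 21.8 to 37.5% of probe sets were dimmer than Car1, 16.1 to 43.0% than Mfsd2b and 19.1 to 31.5% than Rab27b. Detection calls are not used here, so a level this dim cannot be told from background, and a fold there may understate the difference. Gata1 ranked above 34.7 to 45.0% of probe sets in the mutant groups and 58.5 to 61.3% in controls. Rab27b and Mfsd2b were not bright in controls either, above 39.6 to 53.7% and 45.7 to 57.1% of probe sets. Their control levels may therefore also lie near background. Mcpt8 and Hdc stayed bright throughout, above 71.4 to 94.4% and 78.7 to 89.4% of probe sets on any array.

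**Figure D4:**
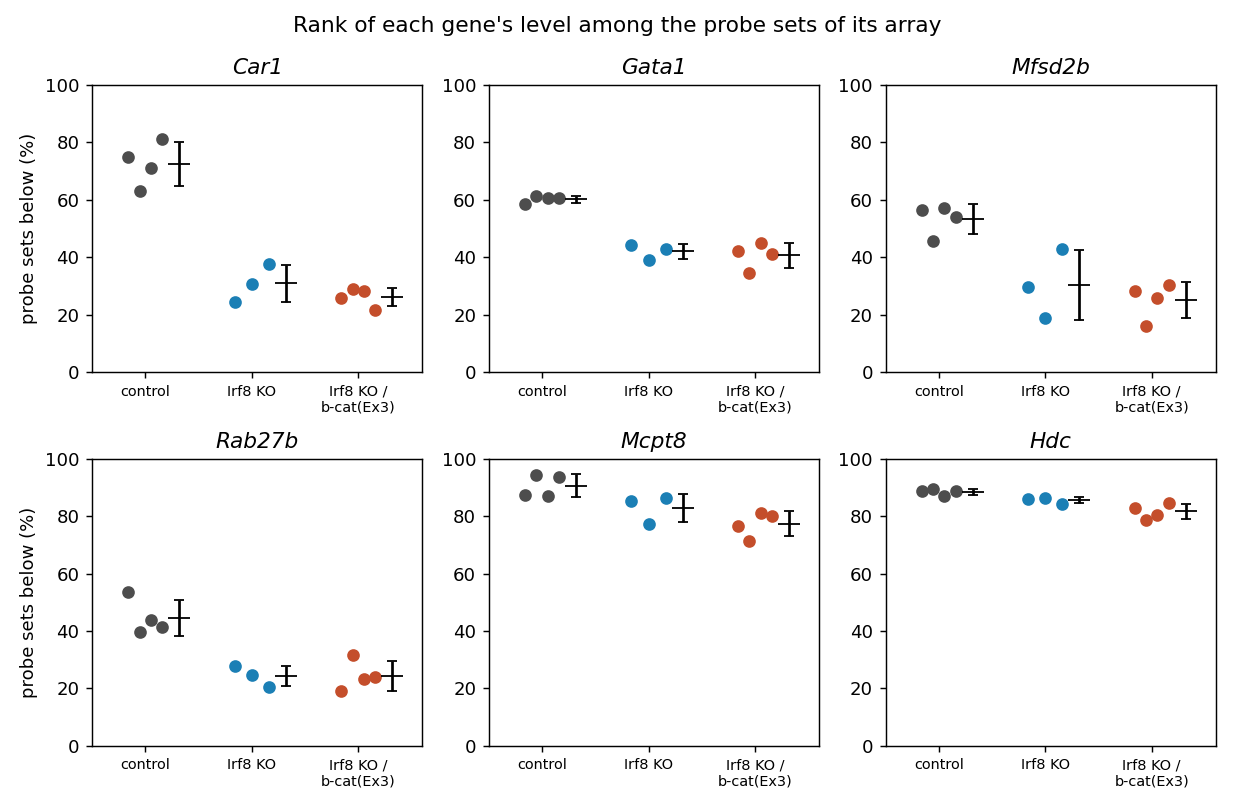
Percent of an array's 45037 probe sets with a lower value than the gene (vertical axis, 0 to 100%) for each array of the 3 groups; points are arrays and bars the mean ± SD. Car1 drops from 63.0 to 81.3% in controls to 21.8 to 37.5% in the mutant groups, while Hdc stays at or above 78.7%.

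Other genes of these lineages could be followed only where the signature names them. Of 33 listed erythroid genes 3 were named, Car1, Gata1 and Mfsd2b, whose fall in Irf8 KO is already described. The signature also holds Hbb-b2, the minor adult beta-globin chain, which was not on the list and was chosen after its value was seen. Hbb-b2 read 4.25, 3.23, 3.47 and 3.92 in controls, 2.07, 2.36 and 2.52 in Irf8 KO and 2.48, 3.29, 1.89 and 2.40 in Irf8 KO / b-cat(Ex3). Every Irf8 KO array lay below every control, while Irf8 KO / b-cat(Ex3) replicate 2 lay among the controls. Hbb-b2 fell in Irf8 KO by 2.63-fold (log2 difference -1.40 ± 0.30, SE; limma adjusted p = 0.0391), a call that held in 9 of 19 alternative fits (adjusted p up to 0.184). It was lost without control replicate 1, 3 or 4, any Irf8 KO replicate, or Irf8 KO / b-cat(Ex3) replicate 1 or 4. The beta-globin genes are near-identical copies, so which of them the probe set reads is uncertain. Hbb-b2 was also dim, above 8.7 to 19.6% of probe sets in Irf8 KO and 35.7 to 52.4% in controls. Its levels may therefore lie near background in both groups. Of the megakaryocyte list, Rab27b is described, and it fell too. Of 32 basophil and mast cell genes 2 were named, Mcpt8 and Hdc, and neither passed. None of 10 eosinophil genes was named. In the Irf8 KO / b-cat(Ex3) minus Irf8 KO comparison, no gene described from the lineage, regulator and partner lists passed.

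Among 24 transcription factors of these lineages, Gata1 and its partner Tal1 were named. Tal1 read 5.58, 5.53, 5.19 and 5.55 in controls, 4.12, 4.59 and 4.86 in Irf8 KO and 4.15, 4.19, 3.91 and 2.81 in Irf8 KO / b-cat(Ex3). Its levels stepped down over the 3 groups, unlike the single drop of the Gata1 levels, but neither step passed for Tal1 (-0.94 ± 0.29 and -0.76 ± 0.29, SE; limma adjusted p = 0.164 and 0.64). That the 2 factors differ in pattern was not tested.

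Of 38 genes that share an enzyme family, a product or a partner with the 6, 3 were named, and all had positive values in the authors' deposited table. These were Sytl1, an effector of Rab27 proteins, at 1.16, S1pr2, a sphingosine-1-phosphate receptor, at 0.72 and Sgpl1, the lyase that breaks down sphingosine-1-phosphate, at 0.66. For these 3 genes Irf8 KO minus control was 0.47 ± 0.24, 0.34 ± 0.16 and 0.41 ± 0.14 in turn (SE, limma adjusted p = 0.437, 0.409 and 0.201). The exporter Mfsd2b thus lay on the negative side while the lyase and a receptor of the same lipid lay on the positive side of the signature.

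Of the named markers of other cell types, Klf4 passed between Irf8 KO and control, and none of those described here passed between Irf8 KO / b-cat(Ex3) and Irf8 KO (limma, adjusted p under 0.05). Of 14 neutrophil markers Cd177 was named, with group means of 4.62, 6.87 and 8.31 in control, Irf8 KO and Irf8 KO / b-cat(Ex3), and it did not pass between Irf8 KO and control (adjusted p = 0.18). Of 12 monocyte and dendritic cell markers 3 were named: Klf4 fell in Irf8 KO (-3.01 ± 0.43, SE; limma adjusted p = 0.0036), while Cd14 and Adgre1 differed by 0.87 ± 0.43 and 0.80 ± 0.31 (adjusted p = 0.438 and 0.283). Of 10 stem and multipotent progenitor markers 2 were named, Hoxa9 with group means of 5.40, 4.74 and 3.89 and Cd27 with 7.79, 7.46 and 5.80 (Irf8 KO minus control, adjusted p = 0.203 and 0.795). None of 13 lymphoid markers was named, and absence of a marker cannot be read from these values. The part of these cell types in the results was not tested. Csf3r, which marks granulocyte progenitors, read 6.64, 7.19 and 7.36 as group means (Irf8 KO minus control, limma adjusted p = 0.0609).

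With control replicate 4 and Irf8 KO / b-cat(Ex3) replicate 2 left out together, the fall in Irf8 KO was -2.65 for Car1, -1.29 for Gata1, -1.29 for Mfsd2b and -1.10 for Rab27b, and all 4 passed (limma adjusted p = 0.00024, 0.000296, 0.0294 and 0.0131). Mcpt8 at -0.88 and Hdc at -0.33 again did not (limma adjusted p = 0.208 and 0.292).

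The profiles most like the 6 were sought among the other named genes, by the root mean square difference of log2 values centred on each gene's mean over the 11 arrays. Car1 was closest to Klf4, a factor of monocyte differentiation, at 0.76, followed by the focal adhesion protein Tns1 at 0.94. Rab27b had the closest match of all, at 0.11, with the membrane glycoprotein Mdga1, which stood at 5.55, 4.64 and 4.55 in the 3 groups. Next to Rab27b came the GTPase Gimap6 at 0.21 and the growth factor Hgf at 0.23. Gata1 was closest to the row that the table calls murine leukemia retrovirus (LOC67527) at 0.23, then Zswim6 and Arhgap17, both at 0.27. Mfsd2b was closest to the serpin Serpinf1 at 0.29, then LOC67527 at 0.31 and Septin8 at 0.32. Mcpt8 was closest to the surface glycoprotein Thy1 at 0.40, then Gata1 at 0.44, and Hdc was closest to the histone acetyltransferase Kat6a at 0.16, then Atad2 at 0.17 and the glucosylceramide synthase Ugcg at 0.18. All candidates had been selected on the same comparison, so likeness here is largely built in.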

How the data were processed

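The deposited array table holds log2 values for 45037 probe sets on 11 arrays, whose medians ran from 3.92 to 4.09, so they appear to have been normalized by the authors, by a method not given in the sources used here. A second file, the authors' deposited signature lists 638 genes with, per the file headers, their log2 fold change and p-value, and the same fold on a linear scale with a sign (treated as a score); the test behind the p-value is not stated. Per the labels' protocols, cDNA was amplified from under 20 ng of total RNA, which can distort low levels. Probe sets were named through the unrounded folds, and 44399 stayed unnamed. Symbols were updated by Entrez identifier in RefSeq (GRCm38.p6): 621 matched, 17 did not, and 54 changed.

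All 3 groups were fitted together in limma 3.58.1 (R 4.3.3; lmFit, contrasts, eBayes) on the deposited log2 values, with no filter and Benjamini-Hochberg adjustment over all probe sets, called under 0.05. The model was tested on simulated data. The number of arrays limits the precision. The members and lists were chosen with earlier results of these data known. The text names the 6 genes, up to 5 called genes from each list, and 3 like genes per member whose SD was at least 66.7% of the member's; a few genes that this rule names are not reported here. Alternatives were quantile normalization, median centring, a level filter, another model of the spread, 2-group fits, array weights, a replicate block, a 2-fold minimum, a threshold of 0.01 and leaving out arrays.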

Additional observations from a re-analysis of the deposited data

How the results depend on the processing

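Car1 and Gata1 were called lower in Irf8 KO in all 19 alternative fits that held them, and Mfsd2b and Rab27b in 13 of 19 each (limma, adjusted p up to 0.126 and 0.0937). Mcpt8 and Hdc were called in 0 of 20. Mfsd2b was lost by a narrow margin with only the 2 groups compared (adjusted p = 0.0519), and both were lost at an adjusted p under 0.01. The filter on level removed Car1, Gata1, Mfsd2b and Rab27b themselves, so the count of called members (4 of 6) became 0 by construction; it was 2 under the 0.01 threshold and 2 to 4 with single arrays left out. The counts of probe sets called, 789 in Irf8 KO minus control, 2 in Irf8 KO / b-cat(Ex3) minus Irf8 KO, 2761 in Irf8 KO / b-cat(Ex3) minus control and 45 for the midpoint, ranged over 347 to 1039, 1 to 10, 1477 to 3673 and 8 to 54 with single arrays left out. They were 303, 1, 1063 and 9 under the 0.01 threshold. Array weights gave 1658 for the first and 4395 for the third, and 2-group fits 0 for the second. Leaving out both arrays that stand apart, chosen after seeing the data, gave 1561 and 11 for the first and second. The cause was not tested.

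Replicate numbers did not pair the arrays: deviations of same-numbered arrays correlated from -0.23 to 0.17. With the replicate number as a block, 658 probe sets were called in the first comparison, 2 in the second, 2443 in the third and 21 for the midpoint, and Rab27b and Hbb-b2 missed the threshold in Irf8 KO (limma adjusted p = 0.0509 and 0.0996).

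Signs turned only among uncalled values near 0. For Irf8 KO / b-cat(Ex3) minus Irf8 KO, Rab27b was 0.0057 with quantile normalization, 0.027 with median centring, 0.035 with the block and -0.11 to 0.059 with single arrays left out. In that comparison Gata1 was -0.17 to 0.021 with single arrays left out and 0.021 without both arrays that stand apart, Mfsd2b was -0.54 to 0.027 with single arrays left out, and Hbb-b2 was -0.064 to 0.40 with single arrays left out and -0.064 without both arrays that stand apart. Against the midpoint, Mcpt8 was -0.41 to 0.053 and Hdc -0.032 to 0.11 with single arrays left out, and Hdc was -0.0087 without both arrays that stand apart. Car1 and Gata1 passed against the midpoint in 1 fit each, without control replicate 2 (adjusted p = 0.038) and without Irf8 KO / b-cat(Ex3) replicate 2 (adjusted p = 0.0408). Averaging probe sets per gene and a floor on linear values were not run, because each gene has 1 named probe set and the values are on the log2 scale.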

Other observations

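Over the whole signature, the 6 genes included, the median gene had over 50% of its difference from control in Irf8 KO GMPs. Over its 394 positive genes the first step held a median of 62.8% of the whole difference. Over its 244 negative genes the median was 68.2%, and 68.0% over the 238 without the 6. Of the positive genes 59 (15%) were called higher in Irf8 KO than in control, and of the negative genes 59 (24.2%) were called lower (limma, adjusted p under 0.05). In Irf8 KO / b-cat(Ex3) against Irf8 KO, 1 signature gene was called, the antiviral oligoadenylate synthetase Oas3, at 4.36 and 7.01 as means of Irf8 KO and Irf8 KO / b-cat(Ex3) (log2 difference 2.65 ± 0.30, SE; limma adjusted p = 0.03). The other called probe set is unnamed here and was lower by -1.54 ± 0.13 (adjusted p = 0.00352). The comparisons share arrays with the one whose fold the signature gives, so these counts are descriptions.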
